A study of Mus musculus with 15 samples.

Results

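The genes described here are 10 that equip the blood-brain barrier with its junctions and transporters: the junction genes *Cldn5*, *Ocln* and *Tjp1*, the nutrient and hormone carriers *Slc2a1*, *Mfsd2a*, *Slc16a1*, *Slco1a4* and *Slco1c1*, and the efflux pumps *Abcb1a* and *Abcg2*. They were chosen by name, with earlier results of these data known, and found through their Ensembl identifiers. All 10 of 10 were found among the 55471 gene rows of the count table, and all 10 were among the 16171 genes that passed the filter on low counts (over 1 CPM, counts scaled to the total of the library, in at least 3 libraries).

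The counts came from the hippocampus of 3-month-old female mice, in 15 RNA-seq libraries of 3 per group, prepared in 2 batches. Batch 1 held DM mice (AppNL-G-F/NL-G-F with Apoe4+/wt), APP-TKI mice (AppNL-G-F/NL-G-F) and WT mice, and batch 2 held ApoE4 mice (ApoE4+/wt) and a WT group of its own. APP-TKI mice are homozygous for mutations knocked into the mouse *App* gene, ApoE4 mice carry a single allele of human *APOE4* beside a mouse *Apoe* allele, and DM mice carry both changes, with *App* homozygous and *APOE4* heterozygous, from a cross of both lines. The ApoE4 line is named Apoe tm1.1(APOE*4)Adiuj and the WT strain C57BL/6JInv. Since DM and ApoE4 mice were in different batches, every comparison was made against libraries of the same batch.

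Brain capillaries are lined by endothelial cells sealed to each other by tight junctions, so that little passes between the cells. Nutrients, hormones and lipids cross through carriers in the endothelial membrane, while pumps of the ABC family return many drugs and toxins to the blood. Several of these genes are also used outside the endothelium: *Slc2a1* and *Slc16a1* in glia, *Slco1c1* in astrocytes and choroid plexus, and *Tjp1* in many cell types.

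Libraries held 32754717 to 44630808 counts. The tissue label was met by its neurons, since the summed level of 6 hippocampal neuron markers was 441.7 to 541.0 CPM in all libraries. Summed choroid plexus markers stood at 2005 CPM in library ApoE4 1 and 1698 CPM in WT 3 of batch 2, against 59.3 to 108 CPM in the other 4 libraries of that batch, and summed striatal markers at 249 CPM in ApoE4 3, against 23.4 to 30.7 CPM in the others of batch 2. In batch 1, the share of counts from long noncoding genes was 2.65 to 2.88% in APP-TKI 1, APP-TKI 2, DM 1 and WT 1, and 2.16 to 2.32% in the other 5 libraries. Results on the libraries with choroid plexus RNA or the higher noncoding share are also given without them.

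Levels were first compared between the genes per length, as RPKM, the CPM divided by the exon length in kilobases. *Slc2a1*, the glucose carrier of the barrier, had the highest mean level over the 15 libraries, 16.0 RPKM (range 9.06 to 26.8), followed by *Tjp1*, the scaffold protein ZO-1 beneath the junction, with 14.3 RPKM (12.5 to 16.5). Their order turned with the batch, since *Slc2a1* exceeded *Tjp1* in 1 of 9 libraries of batch 1 and in 6 of 6 of batch 2. *Slc16a1*, which moves lactate and ketone bodies, had 9.20 RPKM, *Slco1c1*, a thyroid hormone carrier, 7.86 RPKM, and *Mfsd2a*, which carries lysophospholipids with omega-3 fatty acids, 7.33 RPKM. *Cldn5*, the claudin that dominates brain endothelial junctions, had 5.54 RPKM.

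The lowest mean levels were those of *Slco1a4*, a carrier of organic anions (3.19 RPKM), *Abcb1a*, which encodes the pump P-glycoprotein (3.03 RPKM), *Ocln*, the junction protein occludin (2.71 RPKM), and *Abcg2*, a pump with broad substrates (1.78 RPKM). *Slco1a4* exceeded *Abcb1a* in 9 of 9 libraries of batch 1 and 3 of 6 of batch 2, and *Abcb1a* exceeded *Ocln* in 3 of 9 and 6 of 6, so that neither order held in every library. *Tjp1* exceeded *Slc16a1*, *Cldn5* exceeded *Slco1a4* and *Ocln* exceeded *Abcg2* in 15 of 15. Over single libraries the counts ran from 152 for *Cldn5* in APP-TKI 3 to 5642 for *Tjp1* in ApoE4 1.

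**Figure D1:**
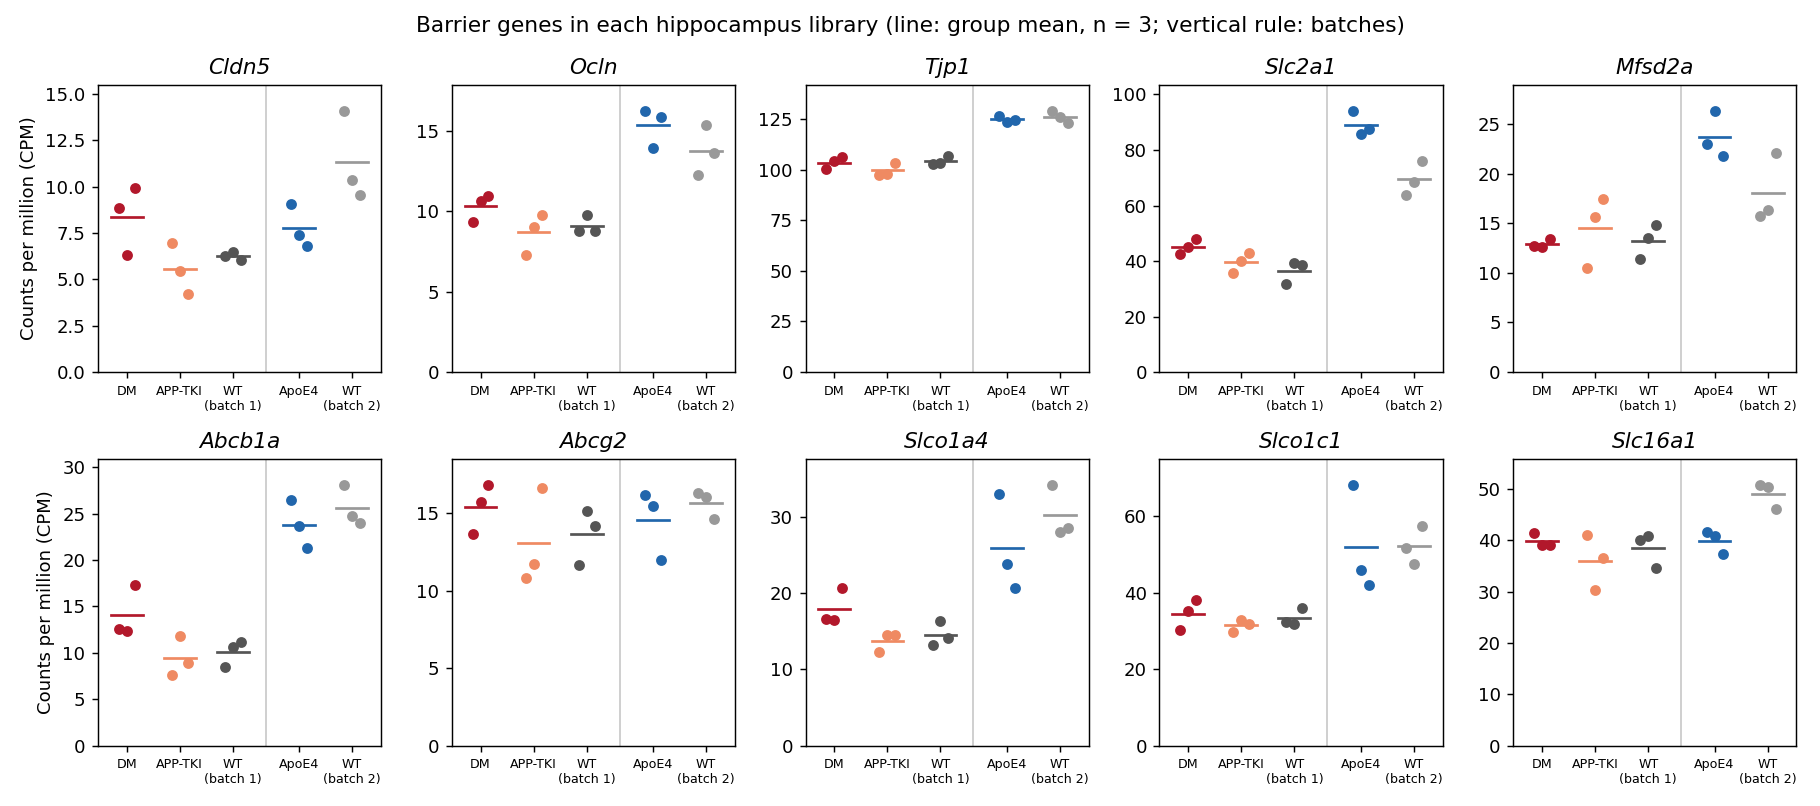
CPM (vertical axes, starting at 0) of the 10 barrier genes in each of 15 hippocampus libraries, with a point per library and a line at the group mean; DM, APP-TKI and WT of batch 1 stand left of the vertical rule and ApoE4 and WT of batch 2 right of it. *Slc2a1* separated ApoE4 from WT libraries (85.6 to 94.0 against 63.8 to 75.9 CPM), and several genes stood higher in batch 2 than in batch 1.

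Several genes stood apart between the batches whatever the genotype, and batches were not tested against each other. *Slc2a1* had 63.8 to 94.0 CPM in the libraries of batch 2 and 31.8 to 47.9 CPM in those of batch 1. *Abcb1a* had 21.3 to 28.1 CPM in batch 2 and 7.65 to 17.3 CPM in batch 1, without overlap. *Abcg2* showed no such shift, with 11.98 to 16.3 CPM in batch 2 and 10.8 to 16.8 CPM in batch 1. Batch and the *App* mutations cannot be told apart in any direct comparison of DM with ApoE4 libraries, and none was made.

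None of the 10 genes passed an adjusted p of 0.1 (edgeR quasi-likelihood test, Benjamini-Hochberg over 16171 genes) in any of the 4 comparisons with or between genotypes or in the 2 differences between them. Statements below on single genes therefore rest on values, intervals and unadjusted p, and counts of genes are set beside the share of all genes that met the same criterion.

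The comparison of DM with WT mice asks what both changes together do to these genes. In DM mice, 8 of 10 genes had a log2 fold change above 0, as had 54.9% of all genes tested, and the median over the 10 was 0.17, against 0.01 over all genes. Genes called at an adjusted p under 0.1 made up 0.0124% of all genes, 2 in number (11 with the replicate number as a block), and 0 of the 10, with adjusted p between 0.824 and 1.00. At an unadjusted p under 0.05, 4 of 10 were higher in DM and 0 lower, against 3.69% of all genes higher and 0.866% lower. With other tools, 0 of the 10 were called by a robust likelihood ratio test (edgeR), against 0.841% of all genes, and 0 by DESeq2, against 0.309%.

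*Slc2a1* had 42.52, 44.996 and 47.86 CPM in DM libraries, against 31.8, 39.1 and 38.7 CPM in WT libraries. All 3 DM values lay above all 3 WT values, and WT 1 was the low library. The fit gave a log2 fold change of 0.30 ± 0.10 (SE, n = 3 each; edgeR unadjusted p = 0.0105, adjusted p = 0.824), and without WT 1 it was 0.20.

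*Abcb1a* had 12.6, 12.4 and 17.3 CPM in DM libraries, against 8.48, 10.6 and 11.2 CPM in WT libraries. The groups did not overlap, and DM 3 stood well above the other DM libraries. The log2 fold change was 0.48 ± 0.18 (unadjusted p = 0.0215, adjusted p = 0.927), falling to 0.30 without DM 3. In the transcript of *Abcb1a*, 18.6% of runs of 50 bases also occur in other genes, 768 of these 922 runs in its near copy *Abcb1b*. The counts of *Abcb1a* may therefore be less certain than those of the other genes, which was not tested.

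*Slco1a4* had 16.6, 16.5 and 20.7 CPM in DM libraries, against 13.1, 16.3 and 14.1 CPM in WT libraries. DM was higher without overlap, though DM 2 lay close to WT 2. On the log2 scale the difference was 0.30 ± 0.12 (unadjusted p = 0.0271, adjusted p = 0.988), and 0.18 without DM 3.

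*Cldn5* had 8.82, 6.32 and 9.94 CPM in DM libraries, against 6.23, 6.47 and 6.03 CPM in WT libraries. DM 2 lay inside the WT range and the other DM libraries above it. The fitted log2 fold change was 0.42 ± 0.19 (unadjusted p = 0.0491, adjusted p = 1.00), with a range of 0.27 without DM 3 to 0.58 without DM 2.

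The 3 genes that were higher in DM without overlap are 3 of 10, against 7.87% of all genes tested, and 0 of 10 were lower without overlap, against 3.10%. The other 7, *Cldn5* among them, overlapped between the groups. *Ocln* (log2 fold change 0.18) and *Abcg2* (0.17) were the next in size, and their 95% intervals reached from -0.09 to 0.45 and from -0.18 to 0.52. *Tjp1* had the narrowest interval, from -0.14 to 0.11 around -0.01.

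**Figure D2:**
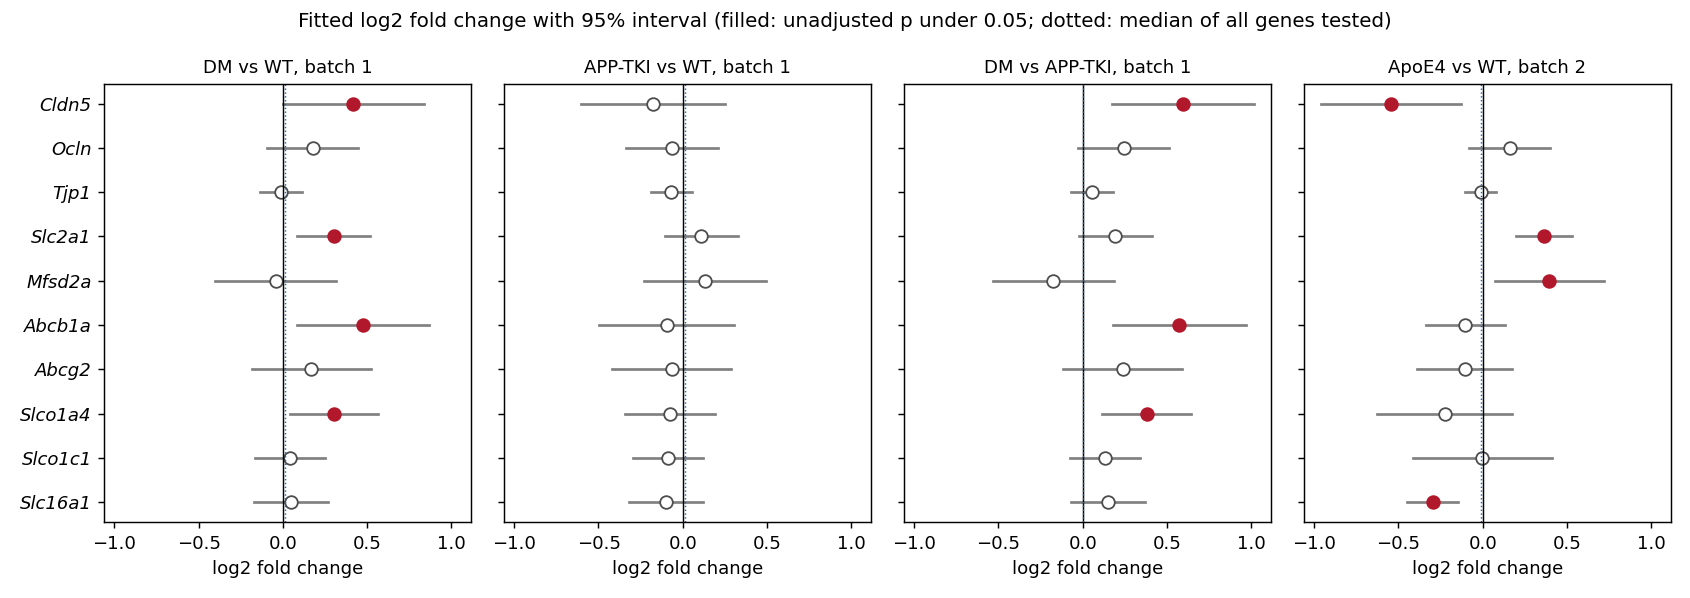
Fitted log2 fold change (horizontal axes) of the 10 genes in 4 comparisons, with 95% intervals; filled points have an unadjusted p under 0.05 and the dotted line is the median of all 16171 genes. In DM against WT the filled points, all above 0, are those of *Slc2a1*, *Abcb1a*, *Slco1a4* and *Cldn5*. No point is filled in APP-TKI against WT, and ApoE4 had 2 filled points on either side of 0. None of the genes passed an adjusted p of 0.1.

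In APP-TKI against WT mice, a comparison of the *App* mutations alone with neither change, fewer of the genes were above 0 than among all genes. Above 0 were 2 of 10 genes, against 55.5% of all genes, with a median log2 fold change of -0.07, against 0.01 over all genes. Called genes made up 0.00618% of all genes and 0 of the 10 (edgeR, lowest adjusted p 1.00; 0 also with the robust likelihood ratio test and with DESeq2, against 0.309% and 0.155% of all genes). At an unadjusted p under 0.05 there were 0 of 10 higher and 0 lower, against 2.19% and 1.37% of all genes. Every gene overlapped between the groups, while 4.65% of all genes were higher and 3.85% lower without overlap. *Cldn5* had 6.95, 5.47 and 4.19 CPM in APP-TKI libraries, against 6.23, 6.47 and 6.03 CPM in WT libraries, so that the APP-TKI values spread on either side of the narrow WT range. *Mfsd2a* had 10.48, 15.64 and 17.48 CPM in APP-TKI libraries, against 11.4, 13.6 and 14.8 CPM in WT libraries, and its interval, from -0.23 to 0.49, was wide.

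DM against APP-TKI mice compares the presence of *APOE4* on the background of mutant *App*. This comparison shares its DM libraries with DM against WT and its APP-TKI libraries with APP-TKI against WT, so that its values are not independent of either. Of the 10 genes, 9 had a log2 fold change above 0, against 50.4% of all genes, with a median of 0.21, against 0.00 over all genes. Called genes were 0.00% of all genes and 0 of the 10 (edgeR, adjusted p 0.987 for each; 0 with the robust likelihood ratio test and with DESeq2, against 0.328% and 0.114% of all genes). At an unadjusted p under 0.05, 3 of 10 were higher and 0 lower, against 2.83% of all genes higher and 0.946% lower.

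*Cldn5* had 8.82, 6.32 and 9.94 CPM in DM libraries, against 6.95, 5.47 and 4.19 CPM in APP-TKI libraries. The groups overlapped, since DM 2 lay below APP-TKI 1. Its log2 fold change was 0.60 ± 0.19 (unadjusted p = 0.00958). *Abcb1a* had 12.6, 12.4 and 17.3 CPM in DM libraries, against 7.65, 11.8 and 8.92 CPM in APP-TKI libraries, with every DM library the higher. Its log2 fold change was 0.57 ± 0.18 (unadjusted p = 0.00825).

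*Slco1a4* was also higher in every DM library, with 16.6, 16.5 and 20.7 CPM in DM, against 12.3, 14.5 and 14.5 CPM in APP-TKI. This is a log2 fold change of 0.38 ± 0.12 (unadjusted p = 0.00870). *Abcb1a* and *Slco1a4*, the genes without overlap, are 2 of 10, against 5.18% of all genes, and 0 of 10 were lower without overlap, against 2.79%. *Mfsd2a* was the single gene below 0, with a log2 fold change of -0.17 and an interval of -0.53 to 0.18.

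Of the 9 libraries of batch 1, 4 had the higher share of long noncoding counts, and these were not spread evenly over the groups (2 APP-TKI, 1 DM, 1 WT). A fit without them was added after the data were seen. In it, *Cldn5* had a log2 fold change of 0.96 and *Abcb1a* of 0.74 in DM against APP-TKI, and *Slc2a1* of 0.25 in DM against WT. That fit rested on 2 DM, 1 APP-TKI and 2 WT libraries, and assumes that the lone APP-TKI library varies like the others. *Cldn5* in this APP-TKI library was the lowest of all 15.

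ApoE4 against WT mice compares the presence of *APOE4* on the background of unaltered *App*. The genes divided: 3 of 10 had a log2 fold change above 0, against 45.9% of all genes, and the median was -0.06, against -0.01 over all genes. Called genes were 0.00% of all genes and 0 of the 10 by edgeR's quasi-likelihood test (lowest adjusted p 0.669), while the robust likelihood ratio test called *Slc2a1*, *Mfsd2a* and *Slc16a1* (0.773% of all genes) and DESeq2 called *Slc2a1* (0.297% of all genes). At an unadjusted p under 0.05, 2 of 10 were higher and 2 lower, against 3.23% of all genes higher and 2.76% lower.

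*Slc2a1* had 94.0, 85.6 and 87.6 CPM in ApoE4 libraries, against 63.8, 68.5 and 75.9 CPM in WT libraries. Each ApoE4 library exceeded each WT library. The log2 fold change was 0.36 ± 0.07 (SE, n = 3 each), with a 95% interval of 0.20 to 0.53, an unadjusted p of 0.00113 and an adjusted p of 0.669, and it stayed between 0.31 and 0.43 with any single library left out. The adjusted p was 0.00206 with the robust likelihood ratio test, 0.00395 with DESeq2 and 0.0849 without a filter on low counts.

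*Mfsd2a* had 23.0, 26.3 and 21.8 CPM in ApoE4 libraries, against 15.8, 16.3 and 22.1 CPM in WT libraries. WT 3, a library with choroid plexus RNA, lay inside the ApoE4 range and the other WT libraries below it. The log2 fold change was 0.39 ± 0.14 (unadjusted p = 0.0228, adjusted p = 0.761), and 0.56 without WT 3.

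*Slc16a1* had 41.6, 40.9 and 37.4 CPM in ApoE4 libraries, against 50.8, 50.4 and 46.1 CPM in WT libraries. ApoE4 was lower without overlap. As a log2 fold change this was -0.30 ± 0.07 (unadjusted p = 0.00222, adjusted p = 0.761), between -0.34 and -0.25 with any single library left out.

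*Cldn5* had 9.07, 7.38 and 6.82 CPM in ApoE4 libraries, against 14.1, 10.4 and 9.54 CPM in WT libraries. ApoE4 was lower without overlap, by a narrow gap between ApoE4 1 and WT 3. The log2 fold change was -0.55 ± 0.18 (unadjusted p = 0.0168, adjusted p = 0.761), and -0.35 without WT 1, the library with the highest level. The genes without overlap were 1 of 10 higher and 2 of 10 lower, against 5.51% and 6.60% of all genes.

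*Slco1c1* had 68.2, 45.8 and 42.0 CPM in ApoE4 libraries, against 51.8, 47.5 and 57.3 CPM in WT libraries. Its highest library in each group was the one with choroid plexus RNA (ApoE4 1 and WT 3), and the log2 fold change was -0.00 ± 0.18. *Slco1a4* was also highest in ApoE4 1 within its group, with 33.004, 23.84 and 20.72 CPM in ApoE4 libraries, against 34.2, 28.0 and 28.6 CPM in WT libraries. Without the pair of libraries with choroid plexus RNA, an alternative added after the data were seen, the median log2 fold change of the 10 genes was -0.21. In that fit *Cldn5* was at -0.79, *Slco1a4* at -0.48, *Slc16a1* at -0.37 and *Slco1c1* at -0.18, and *Mfsd2a* at 0.58 and *Slc2a1* at 0.39, with 0 of the 10 called (lowest adjusted p 0.843) and 5 at an unadjusted p under 0.05. That fit kept ApoE4 3, the library with the high striatal markers. With only ApoE4 3 left out instead, the median was 0.0027, *Slco1a4* was at -0.09, *Slc16a1* at -0.25 and *Slco1c1* at 0.13.

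**Figure D3:**
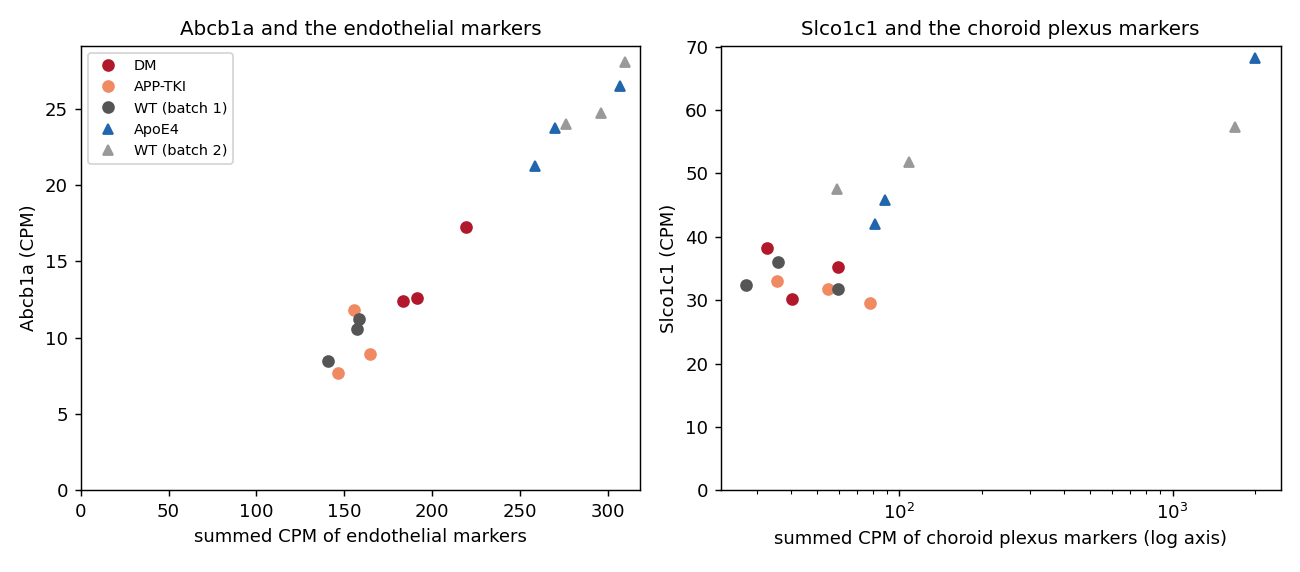
Left, *Abcb1a* (CPM) against the summed CPM of 16 endothelial markers; right, *Slco1c1* (CPM) against the summed CPM of choroid plexus markers on a log axis; a point is a library, circles batch 1 and triangles batch 2. The highest *Abcb1a* level of batch 1, 17.3 CPM, was in the library with the highest endothelial sum of that batch, 219 CPM, and the highest *Slco1c1* level, 68.2 CPM, in the library with 2005 CPM of choroid plexus markers.

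The libraries of DM against APP-TKI and of ApoE4 against WT are all different, and each contrast adds *APOE4*, once with and once without mutant *App*. Their difference was therefore tested in a fit of all 15 libraries. Called genes were 0.00% of all genes and 0 of the 10 (edgeR quasi-likelihood, lowest adjusted p 0.588). Above 0 were 8 of 10 genes, against 52.6% of all genes, with a median of 0.24, and at an unadjusted p under 0.05 there were 4 of 10 above 0 and 1 below, against 4.06% and 2.79% of all genes.

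*Cldn5* differed most. Its log2 fold change was 0.60 in DM over APP-TKI and -0.55 in ApoE4 over WT, and the difference was 1.14 ± 0.28, with a 95% interval of 0.54 to 1.74, an unadjusted p of 0.00109 and an adjusted p of 0.588. It ranked 30 by p among the 16171 genes. The adjusted p was 0.0114 with the robust likelihood ratio test and 0.0759 with DESeq2, and the difference lay between 0.95 and 1.34 with any single library left out.

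*Abcb1a* (0.68 ± 0.23, unadjusted p = 0.0102), *Slco1a4* (0.60 ± 0.22, unadjusted p = 0.0149) and *Slc16a1* (0.45 ± 0.13, unadjusted p = 0.00392) differed in the same direction as *Cldn5*. *Mfsd2a* differed in the opposite one, by -0.57 ± 0.24 (unadjusted p = 0.0289). The endothelial markers described below were also above 0 in this difference, 16 of 16, against 52.6% of all genes, with a median of 0.51. These markers include genes that the study had reported from the same DM and APP-TKI libraries. The robust likelihood ratio test called *Cldn5*, *Slco1a4* and *Mfsd2a* (0.748% of all genes), and DESeq2 called *Cldn5* (0.161% of all genes). *Slc2a1*, which was higher in both contrasts, had a difference of -0.17 with an interval of -0.45 to 0.11, so that a difference of moderate size in either direction was not resolved.

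When DM over WT was set against ApoE4 over WT, each with the WT libraries of its batch, *Cldn5* again differed most, by 0.96 ± 0.28 (unadjusted p = 0.00379, adjusted p = 0.628). *Abcb1a* (0.58), *Slco1a4* (0.53) and *Slc16a1* (0.35) were the others at an unadjusted p under 0.05, making 4 of 10 above 0 and 0 below, against 4.16% and 2.51% of all genes. Whatever their p, 7 of 10 were above 0, against 55.8% of all genes. Called were 0 of the 10 and 0.00% of all genes by edgeR's quasi-likelihood test, 1 by the robust likelihood ratio test (*Cldn5*; 0.445% of all genes) and 0 by DESeq2 (0.192% of all genes). This difference shares its DM and ApoE4 libraries and the WT libraries of batch 2 with the preceding one, so that it is no independent result. Here too, an effect of the batch on a contrast cannot be told apart from that of the *App* mutations.

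**Figure D4:**
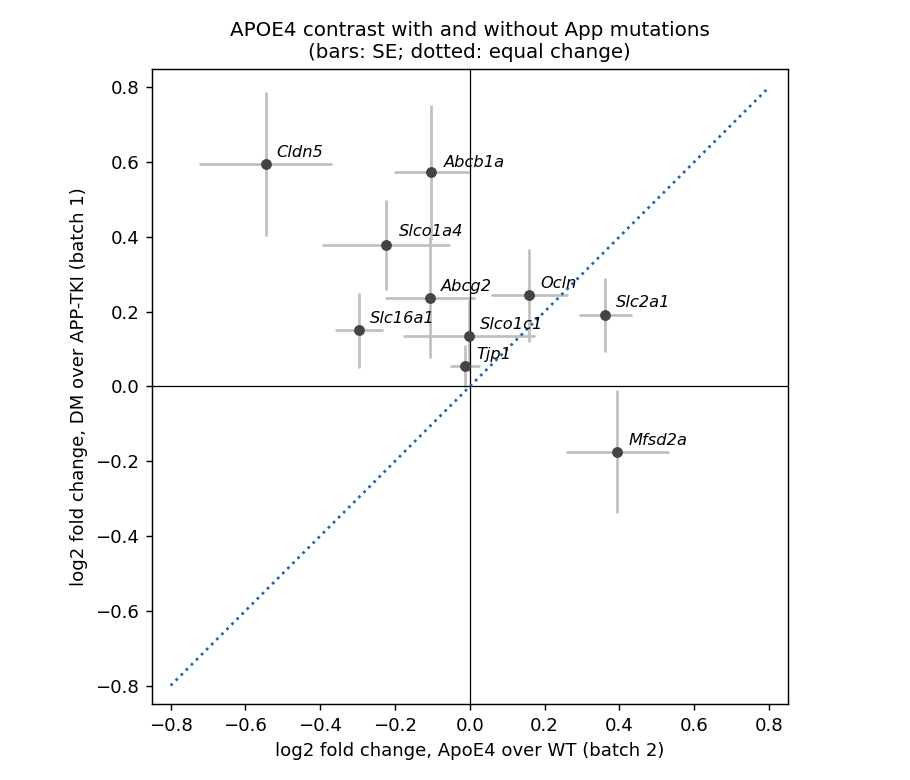
Log2 fold change of DM over APP-TKI (vertical axis, batch 1) against that of ApoE4 over WT (horizontal axis, batch 2) for the 10 genes, with bars of 1 SE; the dotted line marks equal change. *Cldn5* stands farthest above the line (0.60 against -0.55) and *Mfsd2a* farthest below it (-0.17 against 0.39).

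The 10 genes were then compared library by library. With log2 CPM centred within each batch, Pearson's r over the 15 libraries was above 0 for 37 of 45 pairs of genes, with a median of 0.36. The highest was 0.82 between *Abcb1a* and *Slco1a4*, and the lowest -0.73 between *Mfsd2a* and *Slc16a1*. All values of a pair come from the same libraries and share their depth and composition, so they are given as a description.

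Endothelial content was read from 16 marker genes outside the list, among them *Flt1*, *Tek* and *Emcn*, none of which was at 0 in all libraries. Their summed level was 184 to 219 CPM in DM, 146 to 165 CPM in APP-TKI and 140 to 158 CPM in WT libraries of batch 1, and 258 to 306 CPM in ApoE4 and 276 to 310 CPM in WT libraries of batch 2. In DM against WT, 16 of 16 markers had a log2 fold change above 0, against 54.9% of all genes. Their median was 0.38, which is larger than the median of 0.17 over the barrier genes. *Abcb1a* (0.48) and *Cldn5* (0.42) lay above the marker median and the other 8 genes below it.

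In DM against APP-TKI, 15 of 16 markers were above 0, against 50.4% of all genes, with a median of 0.41. The study had reported *Flt1*, *Vwf* and *Ptprb*, which are among these markers, as higher in DM than in APP-TKI from the same libraries. The markers are therefore no independent reading of that comparison. The same holds for DM against WT and for both differences, which use the same DM libraries. In APP-TKI against WT, 7 of 16 markers were above 0 (median -0.06), against 55.5% of all genes. In ApoE4 against WT there were 2 of 16 (median -0.10), against 45.9%. In both differences 16 of 16 markers were above 0, with medians of 0.51 in the first and 0.56 in the second. Among all genes, 52.6% were above 0 in the first and 55.8% in the second. In the first, *Cldn5*, *Abcb1a* and *Slco1a4* lay above the marker median and the other barrier genes below it. In bulk tissue, more endothelial cells and more RNA of a gene per endothelial cell cannot be told apart. The part of endothelial content in the differences of the barrier genes was not tested.

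Centred within the batch, *Abcb1a* and *Slco1a4* followed the mean of the endothelial markers most closely, with r = 0.92 and r = 0.89 over the 15 libraries. *Cldn5* (0.71) and *Abcg2* (0.69) came next, *Tjp1*, *Slco1c1* and *Ocln* had 0.48 to 0.50, *Slc2a1* 0.37 and *Slc16a1* 0.34. *Mfsd2a*, a gene of endothelial cells in brain, had -0.11.

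Marker sums of other cell types also differed between the groups. In DM libraries, ependymal markers summed to 24.2 to 32.1 CPM, against 11.7 to 16.2 CPM in WT libraries of batch 1, with 7 of 7 markers above 0 on the log2 scale. Smooth muscle markers summed to 33.6 to 38.6 CPM in DM, against 23.4 to 28.0 CPM in WT (6 of 6 above 0), and fibroblast markers to 93.4 to 104 CPM in DM, against 65.0 to 77.7 CPM in WT (8 of 8 above 0). In batch 2 the vascular markers lay on the other side. Smooth muscle markers summed to 39.5 to 41.0 CPM in ApoE4, against 47.0 to 59.5 CPM in WT libraries (0 of 6 above 0), and pericyte markers to 126 to 162 CPM in ApoE4, against 165 to 178 CPM in WT (0 of 9 above 0). Astrocyte markers overlapped, with 6238 to 6665 CPM in DM and 6121 to 7125 CPM in WT of batch 1. Among all genes, 54.9% were above 0 in DM against WT and 45.9% in ApoE4 against WT. The part of these cell types in the results was not tested.

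**Figure D5:**
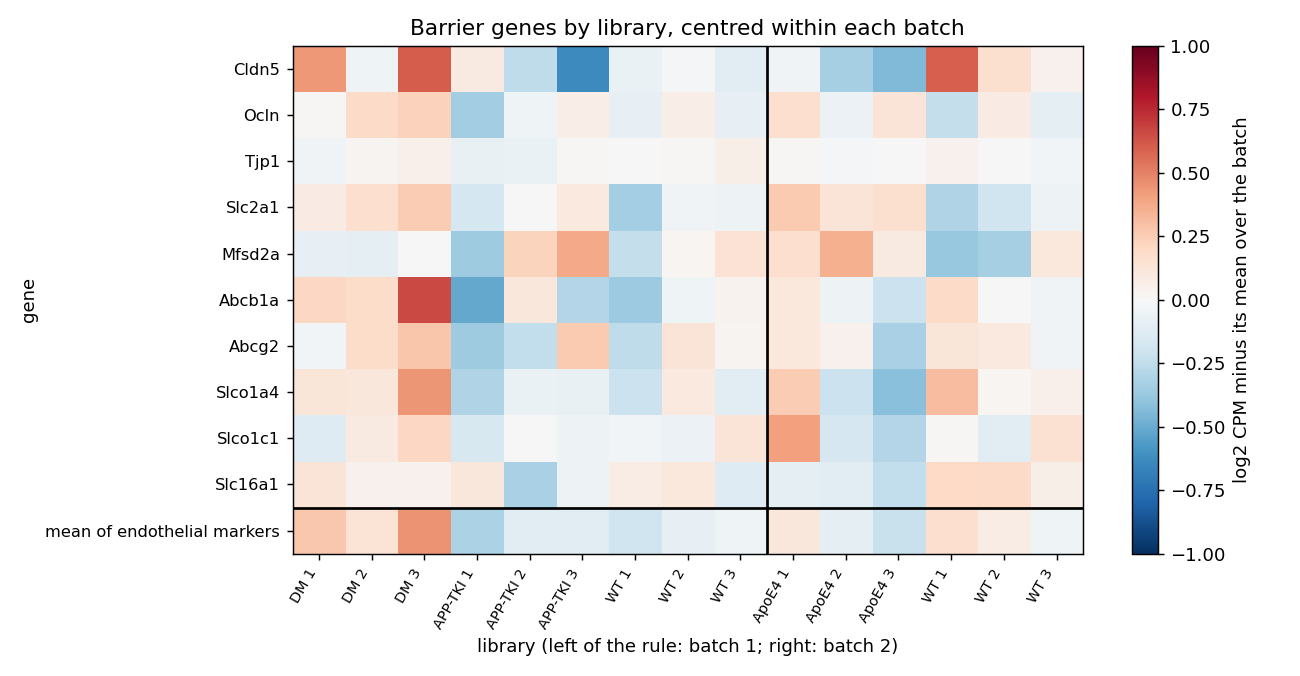
Log2 CPM minus its mean over the batch (colour, red higher) for the 10 genes and the mean of 16 endothelial markers (rows) in 15 libraries (columns, batch 1 left of the rule and batch 2 right). The rows of *Abcb1a* and *Slco1a4* resemble the marker row (r = 0.92 and 0.89), and that of *Mfsd2a* does not (r = -0.11).

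For each gene, the protein-coding genes most like it over the 15 libraries were looked up among 11410 genes with a mean of at least 5 CPM. For *Abcb1a* these were *Adgrl4* (r = 0.90) and *Flt1* (r = 0.89), both expressed by endothelial cells. For *Mfsd2a* they were *Plin4* (r = 0.94), a lipid droplet protein, and *Hif3a* (r = 0.93), a subunit of the hypoxia-inducible factors. *Slc2a1* was most like *Sgms1* (0.88), which makes sphingomyelin, and *Tank* (0.87), *Cldn5* most like *Naa38* (0.88) and *H2-K1* (0.83), a class I histocompatibility gene, and *Slco1c1* most like *Lgals1* (0.91) and *Ccdc12* (0.90). Each value is the highest or the next of 11410, and no shared function is read from it.

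The remaining genes were most like *Cops9* (0.92) and *Letm1* (0.87) for *Slco1a4*, *Chp1* (0.91) and *C1d* (0.91) for *Abcg2*, and *Atp5s* (0.86) and *Mex3d* (0.85) for *Slc16a1*. *Tjp1* was most like *Tspyl1* (0.86) and *Kif1bp* (0.85), and *Ocln* like *2610021A01Rik* (0.83) and *Rbbp4* (0.83).

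*Slco1a4* and *Slco1c1* belong to the same family of organic anion carriers and lie on chromosome 6 with 235262 bases between them, *Slco1c1* on the plus strand (141524368 to 141570177, GRCm38) and *Slco1a4* on the minus strand (141805440 to 141856199). Their log2 CPM, centred within each batch, correlated with r = 0.68 over the 15 libraries. *Slco1a4* had a higher r with *Abcb1a* (0.82), *Abcg2* (0.74) and *Cldn5* (0.70). Promoters of all 10 genes, from 250 bases before to 50 after the start, were available from RefSeq (GRCm38.p6), and those of *Slco1a4* and *Slco1c1* are shown because they share the longest identical run of any pair of the 10 genes, 14 bases, a feature noticed after the promoters were searched. The run is in capitals, and the sequences are chr6:141856171-141856470 on the minus strand and chr6:141524104-141524403 on the plus strand, printed 5′ to 3′ along each gene.
Slco1a4: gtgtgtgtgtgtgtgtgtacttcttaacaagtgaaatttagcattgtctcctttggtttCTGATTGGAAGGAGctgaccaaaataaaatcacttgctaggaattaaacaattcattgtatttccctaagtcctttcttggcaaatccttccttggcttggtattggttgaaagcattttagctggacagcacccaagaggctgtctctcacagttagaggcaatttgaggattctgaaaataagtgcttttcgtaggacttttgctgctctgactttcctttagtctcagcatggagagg
Slco1c1: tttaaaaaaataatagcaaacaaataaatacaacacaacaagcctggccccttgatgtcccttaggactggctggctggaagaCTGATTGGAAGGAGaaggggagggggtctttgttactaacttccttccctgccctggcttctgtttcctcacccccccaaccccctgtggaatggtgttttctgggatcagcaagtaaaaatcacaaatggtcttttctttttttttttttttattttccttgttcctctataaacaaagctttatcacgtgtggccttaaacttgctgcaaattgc
The run, CTGATTGGAAGGAG, ends 177 bases before the start of *Slco1a4* and 153 bases before that of *Slco1c1*. The next longest runs shared by pairs of the 10 genes had 13 bases. On either strand the 14-base run occurs in 2 of 32851 promoters of the same length (0.00609%), which are these. Its presence in both follows from the way it was picked. It holds the letters ATTGG, the reverse complement of the CCAAT box, which occur on either strand in 37.4% of all promoters and in 7 of the 13 promoters listed for the 10 genes. The match is a description of the letters.

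The wider barrier was followed with 64 other genes in 6 lists, chosen, as the 10 genes were, with earlier results of these data known, of which 60 were tested (*Cldn3*, *Ager*, *Slco1a5* and *Slco1a6* did not pass the filter). Called by edgeR's quasi-likelihood test were 0 of 60 in each comparison, against at most 0.0124% of all genes. In DM against WT, 9 of 60 were higher and 2 lower at an unadjusted p under 0.05, against 3.69% and 0.866% of all genes, with a median log2 fold change of 0.07. Called in DM were 4 by the robust likelihood ratio test (*Cdh5*, *Pecam1*, *Slc22a8* and *Cavin1*, all higher) and 2 by DESeq2 (*Pecam1* and *Cavin1*), against 0.841% and 0.309% of all genes. Of these, *Cdh5*, *Pecam1* and *Cavin1* had been reported by the study as higher in DM than in APP-TKI, from the same DM libraries.

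Of 14 other junction genes, 4 were higher in DM at an unadjusted p under 0.05, against 3.69% of all genes. *Pecam1*, an endothelial adhesion molecule, had 7.94, 8.27 and 9.80 CPM in DM libraries, against 6.03, 5.86 and 4.65 CPM in WT libraries (log2 fold change 0.65, adjusted p = 0.384 with the quasi-likelihood test, 0.00595 with the robust likelihood ratio test). *Cdh5*, the cadherin of endothelial junctions, had 4.50, 3.45 and 3.87 CPM in DM libraries, against 2.46, 2.08 and 2.61 CPM in WT libraries (log2 fold change 0.72, adjusted p = 0.403 and 0.0192). Both separated DM from WT without overlap, as did 7.87% of all genes in this direction.

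Among 12 other carriers, *Slc22a8*, an organic anion transporter, had 5.46, 5.42 and 5.71 CPM in DM libraries, against 3.39, 3.91 and 3.62 CPM in WT libraries (log2 fold change 0.60, adjusted p = 0.418). The amino acid carriers *Slc7a5* and *Slc7a1* lay on the other side. *Slc7a1* had 35.9, 35.6 and 38.7 CPM in DM and 32.2, 34.1 and 37.8 CPM in APP-TKI libraries, against 42.2, 44.5 and 44.0 CPM in WT libraries (log2 fold change -0.25 in DM and -0.33 in APP-TKI). *Slc7a5* had 36.6, 33.2 and 32.9 CPM in DM and 29.9, 33.2 and 34.5 CPM in APP-TKI libraries, against 37.1, 44.5 and 42.5 CPM in WT libraries (log2 fold change -0.27 and -0.35). Both were lower without overlap in each mutant group, as were 3.10% of all genes in DM and 3.85% in APP-TKI, and both comparisons use the same WT libraries. The robust likelihood ratio test called both in APP-TKI (adjusted p = 0.0439 for *Slc7a1* and 0.0578 for *Slc7a5*), against 0.309% of all genes. DESeq2 called 0 of 60 there, against 0.155% of all genes.

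In the transcytosis list, *Cavin1*, a coat protein of caveolae, had 12.9, 9.72 and 11.4 CPM in DM libraries, against 6.38, 7.48 and 7.64 CPM in WT libraries (log2 fold change 0.66, adjusted p = 0.209 with the quasi-likelihood test). In ApoE4 against WT, *Tfrc*, the transferrin receptor, had 111, 121 and 111 CPM in ApoE4 libraries, against 135, 127 and 135 CPM in WT libraries (log2 fold change -0.21, adjusted p = 0.761). *Tfrc* was lower without overlap, as were 6.60% of all genes.

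The 18 genes of the Wnt pathway that sustains the barrier had a median of 0.07 in DM against WT on the log2 scale. Above 0 were 15, against 54.9% of all genes. At an unadjusted p under 0.05 were 0 of 18 in this comparison, in APP-TKI against WT and in ApoE4 against WT. Among all genes, 3.69% were higher and 0.866% lower in DM, 2.19% and 1.37% in APP-TKI, and 3.23% and 2.76% in ApoE4. In DM against APP-TKI, *Sox17*, an endothelial transcription factor, had 1.41, 1.40 and 2.06 CPM in DM libraries, against 0.931, 0.815 and 0.854 CPM in APP-TKI libraries (log2 fold change 0.90, adjusted p = 0.987). WT libraries of batch 1 had 1.40, 0.946 and 1.41 CPM. DM overlapped them (log2 fold change 0.36 over WT) and APP-TKI lay below them (-0.54). The 4 other efflux pumps, *Abcb1b* among them, had a median of -0.03 in DM against WT. At an unadjusted p under 0.05 there were 0, against 3.69% of all genes higher and 0.866% lower. *Bsg*, which escorts the product of *Slc16a1* to the membrane, had a log2 fold change of 0.13 ± 0.05 in DM against WT (unadjusted p = 0.0360).

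In ApoE4 against WT, 1 of 60 was higher and 4 lower at an unadjusted p under 0.05, against 3.23% and 2.76% of all genes. Both other tools called 0 of 60, against 0.773% (robust likelihood ratio test) and 0.297% (DESeq2) of all genes. In DM against APP-TKI, 10 were higher and 2 lower, against 2.83% and 0.946% of all genes. Called there were 4 by the robust likelihood ratio test (*Cgnl1*, *Cdh5*, *Pecam1* and *Cavin1*), against 0.328% of all genes. DESeq2 called 2 (*Pecam1* and *Cavin1*), against 0.114% of all genes, and all these genes were higher in DM. The study had already reported *Cdh5*, *Pecam1* and *Cavin1* as higher in DM than in APP-TKI, from the same libraries and with a robust likelihood ratio test. Their calls are therefore no independent result. In APP-TKI against WT, 2 were higher and 3 lower, against 2.19% and 1.37% of all genes.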

How the data were processed

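RNA of the hippocampus was sequenced as polyadenylated libraries. The authors deposited raw read counts per gene, made by trimming with Trimmomatic 0.39, aligning with STAR 2.7.1a to GRCm38 (GENCODE M24) plus human *APOE*, and counting with HTSeq 0.11.2. Its strand setting is not stated, so counts where *Slc2a1* overlaps antisense *Gm12868* (105 exon bases) and *Abcb1a* overlaps *Gm42686* (553) are uncertain. Gene IDs were matched to GENCODE M21 of the same build (55230 of 55471).

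Here, genes over 1 CPM in at least 3 libraries were scaled by the upper quartile and tested with the quasi-likelihood test of edgeR 4.0.16 (R 4.3.3), each batch in its own fit and differences between batches in a fit of all 15 libraries. The threshold was a Benjamini-Hochberg adjusted p of 0.1. The quasi-likelihood test stands in for the robust likelihood ratio test of the study, which is an alternative beside DESeq2 1.42.0, other scalings, filters and sets of libraries. CPM and RPKM use total counts, and correlations log2 CPM with a prior count of 1. The study counts its n in mice, and each library was taken as a mouse. The genes and lists were chosen with earlier results of these data known. Described are all 10 genes, of the wider lists up to 3 genes with the smallest p in a comparison (not every such gene is reported here), and the 2 genes most like each of the 10. Apart from the counts given for fits with the replicate number as a block, all values reported come from fits without pairing. Same-numbered DM and WT libraries deviated together (r = 0.45, 0.19 and 0.30). The count of all genes called with the number as a block is therefore given beside that comparison. The fits were tested on simulated data. No pair of libraries of a group agreed within sampling noise. Figures used matplotlib.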

Additional observations from a re-analysis of the deposited data

How the results depend on the processing

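Directions of the 10 genes held under most alternatives, while counts of calls depended on the test and filter; the causes were not tested. In the order DM against WT, APP-TKI against WT, DM against APP-TKI, ApoE4 against WT, the difference between DM minus APP-TKI and ApoE4 minus WT, and the difference between DM minus WT and ApoE4 minus WT, all genes called were 2, 1, 0, 0, 0 and 0 with edgeR's quasi-likelihood test, 136, 50, 53, 125, 121 and 72 with its robust likelihood ratio test, 50, 25, 18, 48, 26 and 31 with DESeq2, and 179, 83, 109, 12, 393 and 351 with no filter on low counts. Of the 10 genes, 0, 0, 0, 3, 3 and 1 were called with the robust likelihood ratio test, 0, 0, 0, 1, 1 and 0 with DESeq2, and 1, 0, 2, 1, 5 and 3 with no filter, under which 5 reached an unadjusted p under 0.05 in DM against APP-TKI. The robust likelihood ratio test moved the median of the first difference to 0.36.

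With all 15 libraries in a single fit, all genes called were 1, 3 and 1 in the 3 comparisons of batch 1, and 2 of the 10 genes reached an unadjusted p under 0.05 in DM against WT. With only the compared groups in the fit, all genes called were 30 in DM against WT and 1 in DM against APP-TKI. With the replicate number as a block, all genes called were 11, 9 and 1 in batch 1 and 1 in the second difference, and 6 of the 10 genes reached an unadjusted p under 0.05 in DM against APP-TKI; the block changed no call among the 10. Outside DM and WT, same-numbered libraries did not all correlate (APP-TKI with WT 0.19, -0.32 and 0.23; DM with APP-TKI 0.23, -0.12 and 0.22; ApoE4 with WT -0.27, 0.06 and 0.07).

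Without the 4 libraries of high noncoding share, all genes called were 131, 342 and 163 in batch 1 and 1 in the first difference, and 1, 0 and 2 of the 10 genes were called in batch 1, with 2 and 5 at an unadjusted p under 0.05 in APP-TKI against WT and in DM against APP-TKI. In APP-TKI against WT, *Ocln* (0.070) and *Abcg2* (0.17) then changed sign, in DM against APP-TKI *Abcg2* (-0.024), in the first difference *Ocln* (-0.013) and in the second *Tjp1* (0.011). Without the pair of libraries with choroid plexus RNA, 1 gene was called in ApoE4 against WT, the medians over the 10 genes were -0.21 there and 0.40 and 0.32 in the differences, and *Tjp1* was 0.028 in the second.

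Other sign changes were of values near 0. In ApoE4 against WT, *Slco1c1* was 0.0056 with TMM scaling, 0.0040 with median-of-ratios scaling, 0.0036 with DESeq2 and 0.021 with no filter, under which *Tjp1* was 0.0100. In the second difference, *Ocln* was -0.0027, -0.0041, -0.0043 and -0.015 under the same settings, and *Tjp1* 0.0024 with filterByExpr.

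With each library left out in turn, 0 of the 10 genes were called in any comparison, and all genes called ranged from 1 to 29, 0 to 3, 0 to 1, 0 to 1, 0 to 0 and 0 to 1. Genes of the 10 at an unadjusted p under 0.05 ranged from 1 to 4, 0 to 1, 1 to 6, 2 to 6, 4 to 6 and 2 to 5, and medians from 0.11 to 0.25, -0.11 to 0.017, 0.13 to 0.30, -0.19 to 0.0027, 0.16 to 0.41 and 0.091 to 0.33. The genes whose sign depended on a single library were, in DM against WT, *Tjp1* (-0.034 to 0.020), *Mfsd2a* (-0.15 to 0.054), *Slco1c1* (-0.037 to 0.14) and *Slc16a1* (-0.014 to 0.097). In APP-TKI against WT they were *Ocln* (-0.16 to 0.046), *Mfsd2a* (-0.024 to 0.32), *Abcb1a* (-0.29 to 0.036), *Abcg2* (-0.28 to 0.052), *Slco1a4* (-0.15 to 0.016) and *Slc16a1* (-0.20 to 0.010), and in ApoE4 against WT *Tjp1* (-0.029 to 0.011), *Abcg2* (-0.19 to 0.016) and *Slco1c1* (-0.25 to 0.13). In the differences they were *Ocln* (-0.027 to 0.18 in the first, -0.064 to 0.090 in the second), *Tjp1* (-0.023 to 0.032) and *Slco1c1* (-0.086 to 0.30) in the second. With 152 to 528 counts per library, *Cldn5* has the least depth of the 10.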
